A study of Mus musculus with 14 samples.

Results

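BAP1 was mapped by chromatin immunoprecipitation and sequencing (ChIP-seq) in mouse embryonic stem cells that carry only a catalytically dead form of the protein, and the same antibody was used in BAP1 knockout cells as a control for background. The 2 ChIP libraries and their 2 inputs were taken by their titles, 4 of the 14 samples of the series, and every listed peak was kept, including those on mitochondrial and unplaced sequence. The C91A library listed 2396 peaks and the knockout library 203, which makes 2599 of the 83241 peaks in all lists. Each group had 1 ChIP library and no replicate, so the comparison describes these libraries and carries no test between conditions.

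The cells were on a C57BL/6 background, and the labels give an origin at E3.5 to 4.5. The C91A cells have the genotype Bap1 C91A/-, with the catalytic cysteine of the one remaining copy replaced, and the control cells lack BAP1. For 4 days all cells had received 4-hydroxytamoxifen (100 nM), a ligand that activates Cre fused to an oestrogen receptor, with the caspase inhibitor emricasan (10 µM). The protocol states a first crosslinking step in 2 mM disuccinimidyl glutarate, a linker between proteins, over 30 minutes for C91A cells and does not state it for the knockout cells. Chromatin was sheared to between 200 and 700 bp. The protein-crosslinking step and the genotype cannot be told apart here. Nothing in the labels says how many clones or cultures stand behind either library.

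BAP1 is the catalytic subunit of the Polycomb repressive deubiquitinase, which removes ubiquitin from histone H2A. Polycomb repressive complex 1 (PRC1), with RNF2 as its ligase, places that mark, mainly at CpG-rich promoters and at the silent genes of developmental transcription factors. BAP1 reaches chromatin with partners such as ASXL proteins, HCFC1 and the forkhead factors FOXK1 and FOXK2. A catalytically dead form keeps the protein present while its enzymatic activity is lost, and a knockout library shows what the antibody and the sequencing give without the protein.

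The promoters shown here carry the strongest C91A peaks whose summit falls inside a promoter window, taken as 250 bases before to 50 after an annotated start (RefSeq, GRCm38.p6). They were taken by peak strength and summit position, not by the kind of gene or by the motif letters, which are counted over all promoters later. Capitals mark matches, on either strand, to forkhead TGTTTAC, ETS CCGGAAG, YY1 GATGGC, E-box CACGTG, CRE GACGTCA or NRF1 CGCATGC. Each sequence reads 5′ to 3′ on the strand of its gene. Ccdc28a, a coiled-coil protein gene, lies at chr10:18234932-18235231 on the minus strand. Lsm7, an RNA-binding subunit of the spliceosome, lies at chr10:80855160-80855459 on the minus strand. Psme3, a proteasome activator, lies at chr11:101315963-101316262 on the plus strand. Vps26b, a retromer subunit, lies at chr9:27030045-27030344 on the minus strand. Crbn, the substrate receptor cereblon of an E3 ligase, lies at chr6:106800038-106800337 on the minus strand. Snx29, a sorting nexin, lies at chr16:11322654-11322953 on the plus strand.
Ccdc28a: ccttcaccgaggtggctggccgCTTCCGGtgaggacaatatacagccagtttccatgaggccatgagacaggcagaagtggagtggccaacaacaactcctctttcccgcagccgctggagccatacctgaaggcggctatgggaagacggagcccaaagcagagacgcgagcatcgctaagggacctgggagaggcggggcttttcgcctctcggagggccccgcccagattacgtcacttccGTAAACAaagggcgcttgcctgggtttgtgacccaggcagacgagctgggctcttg
Lsm7: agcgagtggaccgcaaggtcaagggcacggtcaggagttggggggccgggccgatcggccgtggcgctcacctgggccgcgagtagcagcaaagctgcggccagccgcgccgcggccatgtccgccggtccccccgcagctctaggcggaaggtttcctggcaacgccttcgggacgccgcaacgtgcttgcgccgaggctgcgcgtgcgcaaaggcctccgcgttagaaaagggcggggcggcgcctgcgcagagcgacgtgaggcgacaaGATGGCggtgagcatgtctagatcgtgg
Psme3: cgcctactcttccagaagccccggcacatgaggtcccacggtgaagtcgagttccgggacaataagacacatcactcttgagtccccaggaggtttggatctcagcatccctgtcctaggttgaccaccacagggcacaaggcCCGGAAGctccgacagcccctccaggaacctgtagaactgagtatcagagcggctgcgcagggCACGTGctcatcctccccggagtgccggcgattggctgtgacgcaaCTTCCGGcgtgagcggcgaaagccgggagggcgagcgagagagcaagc
Vps26b: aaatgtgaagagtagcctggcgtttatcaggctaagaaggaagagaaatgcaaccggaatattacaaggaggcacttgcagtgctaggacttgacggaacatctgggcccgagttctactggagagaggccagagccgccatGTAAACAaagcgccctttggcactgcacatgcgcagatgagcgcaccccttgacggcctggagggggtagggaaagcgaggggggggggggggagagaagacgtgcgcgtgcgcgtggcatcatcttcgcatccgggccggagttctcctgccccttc
Crbn: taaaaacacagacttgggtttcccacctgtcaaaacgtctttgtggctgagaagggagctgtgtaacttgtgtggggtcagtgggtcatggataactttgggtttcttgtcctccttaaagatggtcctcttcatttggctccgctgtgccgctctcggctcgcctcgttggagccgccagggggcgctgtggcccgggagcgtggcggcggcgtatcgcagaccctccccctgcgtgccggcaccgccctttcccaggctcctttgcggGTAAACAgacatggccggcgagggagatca
Snx29: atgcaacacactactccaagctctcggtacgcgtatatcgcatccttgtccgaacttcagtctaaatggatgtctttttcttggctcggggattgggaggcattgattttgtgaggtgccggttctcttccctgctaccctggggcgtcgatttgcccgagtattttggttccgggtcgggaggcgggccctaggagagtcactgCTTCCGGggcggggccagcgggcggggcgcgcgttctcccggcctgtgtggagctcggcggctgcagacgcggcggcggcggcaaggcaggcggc

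These peaks had a fold enrichment of 5.60 at Ccdc28a, 5.52 at Lsm7, 5.44 at Psme3, 5.29 at Vps26b, 4.99 at Crbn and 4.91 at Snx29. Fold enrichment is the authors' value, the summit pileup over the local background estimated from the input, and it serves to order and describe the peaks of one list. The summits rested on 71, 70, 69, 67, 63 and 62 tags in the same order, and lay 2 bp before the start at Ccdc28a, 33 bp before it at Lsm7 and 11 bp after it at Crbn. At Psme3, Vps26b and Snx29 the summits lay farther upstream, at -217, -247 and -164 bp. The forkhead letters occur in 3 of these 6 windows, beginning at position -6 in Ccdc28a, -108 in Vps26b and 20 in Crbn, counted from the start as 0. The windows of Ccdc28a, Psme3 and Snx29 hold the ETS letters. Over all C91A windows of protein-coding genes the share was 6.48% for the forkhead letters and 32.8% for the ETS letters. Over all protein-coding windows with at least 10 CpG the shares were 2.13% and 18.4%. A wild-type RNF2 peak lay over none of the 6 windows in the first RNF2 library and over those of Lsm7, Psme3 and Crbn in the second. A match of letters is a description of the window and not a binding site.

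The control offers a single promoter for comparison. Of 32851 promoter windows in the RefSeq table, 2 lay under a knockout peak, and both are alternative starts, a few bases apart, of the long non-coding RNA gene Gm15564 on chromosome 16. The window at chr16:35981798-35982097, on the minus strand, holds 6 CpG against 18 to 40 in the C91A promoters above, and none of the searched motifs.
Gm15564: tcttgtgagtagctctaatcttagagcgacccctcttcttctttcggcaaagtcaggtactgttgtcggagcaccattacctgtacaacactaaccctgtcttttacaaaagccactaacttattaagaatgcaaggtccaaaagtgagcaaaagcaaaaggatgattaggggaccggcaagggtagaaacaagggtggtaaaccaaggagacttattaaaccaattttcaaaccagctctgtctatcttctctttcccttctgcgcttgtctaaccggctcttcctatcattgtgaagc
Its control peak reached a fold enrichment of 5.39 and also lay under a peak in 2 of 4 RNF2 libraries. The position was therefore listed with a second antibody too.

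C91A peaks lay mostly at gene ends and in gene bodies, and knockout peaks mostly outside genes and on unplaced sequence. Within 1 kb of either end of a protein-coding gene lay 1224 C91A peaks (51.1%, Wilson 95% interval 49.1 to 53.1) and 1 knockout peak (0.493%, 0.0870 to 2.74), which is at Lars2, the mitochondrial leucyl-tRNA synthetase gene. A further 883 C91A peaks (36.9%) lay inside a gene away from its ends and 288 (12.0%) outside genes. In the knockout list 47 peaks (23.2%) lay inside genes, 96 (47.3%) outside genes and 56 (27.6%) on unplaced sequence, of which 52 fell on the single scaffold JH584304.1. All intervals cover counting error only.

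**Figure D1:**
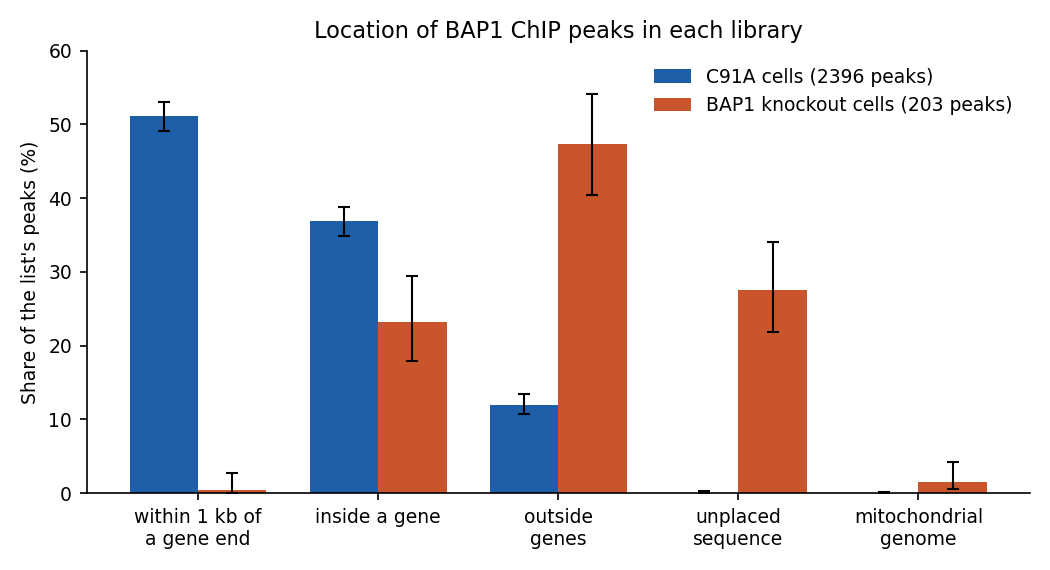
Share of each BAP1 ChIP list (vertical axis, percent) in 5 location classes (horizontal axis), blue for C91A cells and orange for BAP1 knockout cells, with Wilson 95% intervals as error bars. The gene-end class holds 51.1% of C91A peaks and 0.493% of knockout peaks, and unplaced sequence holds 27.6% of knockout peaks.

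The lists also differed on mitochondrial sequence and at chromosome starts. The knockout list held 3 mitochondrial peaks that covered 11632 bases, 71.4% of the positions from 1 to 16299, the last base of those peaks. The C91A list held 0 of 2396 there, which allows a share of up to 0.125% by counting error alone. The C91A list also had 0 peaks in the first 250 kb past the 3 Mb mark where the assembled sequence of most mouse chromosomes begins. The knockout list had 63 there (31.0%), on 7 chromosomes but mostly on chromosomes 9 and 11. They included 24 in 1 run of 23.2 kb on chromosome 9 (3015183 to 3038333) and 22 inside the gene Sfi1 on chromosome 11. A single C91A peak lay on an unplaced scaffold, GL456216.1. The caller extended tags to 50 bp in the C91A library and to 147 bp in the knockout library. It also scaled the C91A ChIP by 0.518, down to its smaller input. Whether the C91A library could have listed peaks at such positions was not tested. The low C91A counts there therefore cannot show a difference in binding.

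The lists shared no position. Of 2396 C91A peaks 0 overlapped a knockout peak by at least 1 bp. By counting error alone this allows up to 0.125% of the C91A list and up to 1.48% of the knockout list. With 1 kb allowed between them the count was still 0, and with 10 kb it was 1 peak of each list. That pair lay 8.45 kb apart at E030030I06Rik on chromosome 10. Lars2 was the one gene with a peak of each list at an end, and those peaks stood at opposite sides of the gene. The knockout peak (chr9:123461870-123462129, fold enrichment 3.98) and the C91A peak (chr9:123366883-123367019, fold enrichment 2.87) were 94.9 kb apart.

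The depth of the control limits what this absence of overlap can say. After the authors' filtering the C91A ChIP held 415 M tags and the knockout ChIP 32.5 M, 12.7 times fewer, against inputs of 215 and 228 M. On the lowest background used in the knockout library, a summit needed 13 tags to reach the smallest listed −log10 p-value of 5.94, which corresponds to a fold enrichment of 3.93. That is the most favourable case, since the lowest summit listed in the control had 21 tags, and its 4 peaks on genome background had fold enrichments of 6.74 to 7.59, above every C91A peak. Only 446 C91A peaks (18.6%) had a fold enrichment of at least 3.93. Of those 446, 0 overlapped a knockout peak, which allows up to 0.673%. The 446 are an approximate set, since fold enrichment adds 1 to both signal and background. Genome background was 2.56 tags in the control and 5.74 in the C91A library after scaling, and tags were extended to unlike lengths. For the other 1950 peaks (81.4%), a site of equal fold enrichment on genome background would not have been listed in the control at its depth. The C91A library sets a limit too. At least 2 times the genome background of their library lay under 184 knockout peaks (90.6%) and 9 C91A peaks (0.376%). Whether the C91A library could have listed peaks at such positions was not tested. The lack of overlap therefore cannot show that the positions differ between the cells.

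The listed knockout peaks stood on raised local background and the listed C91A peaks did not. The background implied by each peak's pileup and fold enrichment was expressed as a multiple of the genome-wide background of its own library. Its median was 1.02 over C91A peaks, with a highest value of 2.79, and 6.04 over knockout peaks, with a highest value of 16.4. Within 5% of the genome background were 1627 C91A peaks (67.9%, 66.0 to 69.7) and 4 knockout peaks (1.97%, 0.769 to 4.96). At or above 2 times the genome background were 9 C91A peaks (0.376%) and 184 knockout peaks (90.6%, 85.8 to 93.9). Input tags numbered 6.99 per ChIP tag in the knockout pair and 0.518 in the C91A pair, and the part of this unequal depth in the difference was not tested. The highest listed summit had 90 tags, before scaling by 0.518, in the C91A library and 243 in the knockout library. Whether the C91A library could have listed peaks on backgrounds as high as those of the control was not tested. The contrast therefore describes the lists and not binding.

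**Figure D2:**
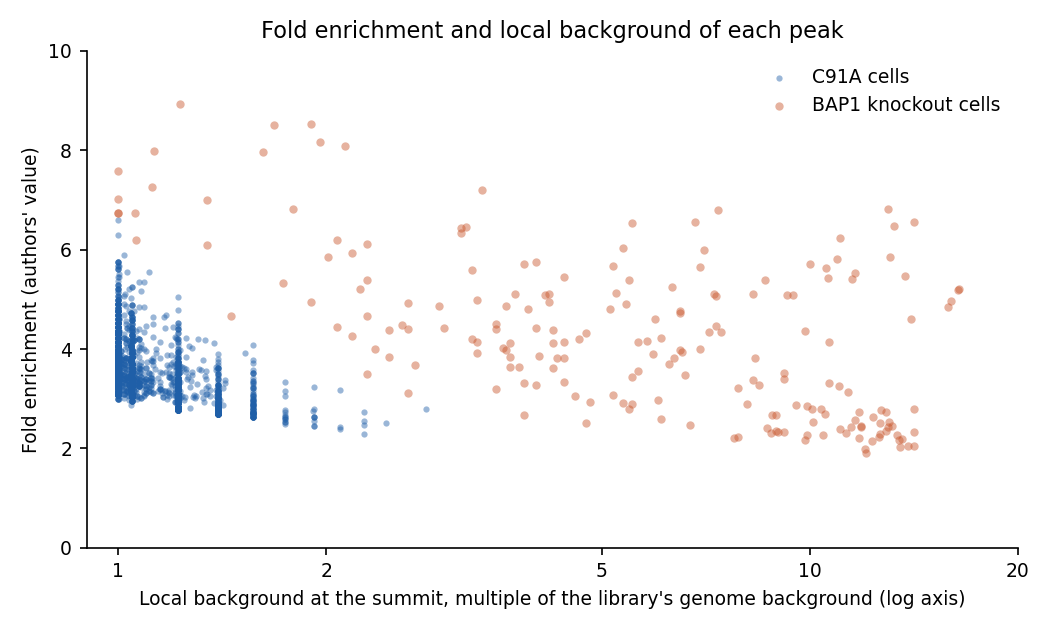
Each point is 1 peak, with the local background at its summit as a multiple of its library's genome background (horizontal, log axis) and the authors' fold enrichment (vertical). C91A peaks (blue) lie between 1.00 and 2.79 on the horizontal axis, and knockout peaks (orange) reach 16.4.

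The unplaced scaffold and chromosome-start peaks dominated the control, and few genes were involved. A knockout peak touched 27 protein-coding genes, 0.124% of 21779, through 48 peaks. Sfi1, which encodes a centrin-binding protein, held 22 of these in 15.7 kb on chromosome 11 (3184309 to 3199984), and they are also among the chromosome-start peaks. Their fold enrichment ran from 1.98 to 2.85 on a background of 9.90 to 14.1 times that of the genome. Tmem267 held 2, and the other 25 genes held 1 each. The highest fold enrichments among these were at Efna5, an ephrin ligand (8.92), Xkrx (8.53), Lama1, a laminin chain (8.50), Wdr76 (8.08), Flt1, a VEGF receptor (7.25), and Slc14a2, a urea transporter (7.03). Those 6 peaks stood on low background, between 1.00 and 2.12 times that of the genome, and rested on 24 to 51 tags. Fat2 (6.75), Neb (6.74), Cmss1 and Filip1l, which share a peak (6.04), Zc3h7a (5.75), Chl1 (5.71), Aida (5.42), Cdk8 (5.07), Kctd16 (4.95), Cdk5rap2 (4.72), Col23a1 (4.45), Cldn34d (4.36) and E030030I06Rik (4.16) followed by fold enrichment. Jarid2, a PRC2 cofactor (3.90), Camk1d (3.82), Fbxw4 (3.47) and Smo, the Hedgehog signal transducer (2.28), were lower. All of these peaks except that of Lars2 lay inside the gene, away from its ends. In that wider sense Efna5, Flt1 and Lars2 were the genes touched by the control that also had a C91A peak at an end, and the only gene with a control peak at an end was Lars2, 0.00459% of all protein-coding genes.

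Some control positions recurred under another antibody. Of 203 knockout peaks, 11 (5.42%) overlapped a peak in at least 1 of the 4 RNF2 libraries from wild-type and BAP1 knockout cells. The peak over Rn18s-rs5 and AY036118 (chr17:39842997-39848857, 5861 bp, fold enrichment 4.85, background 15.9 times that of the genome) and a 2235 bp peak on JH584304.1 recurred in all 4. Rn18s-rs5 is annotated as a pseudogene related to 18S ribosomal RNA. By contrast 1850 C91A peaks (77.2%) lay under RNF2 peaks of the first wild-type library and 2127 (88.8%) under those of the second, against 2 (0.985%) and 9 (4.43%) of the knockout list.

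C91A peaks were narrow in the median, and width rose with fold enrichment. Their median width was 120 bp (95% interval 115 to 126), with quartiles at 74 and 248 bp and a largest value of 3062 bp. Knockout peaks had a median of 271 bp (249 to 294) and reached 6490 bp, on the mitochondrial genome. The order turned at equal list length, where the best 203 C91A peaks by −log10 q had a median of 675 bp. That choice favours wide peaks, since the median −log10 q was 2.59 for C91A peaks under 100 bp and 7.92 for those of at least 1 kb. These widths are not on a common footing, because the caller extended tags to 50 bp in the C91A library and to 147 bp in the knockout library. Those lengths are also the smallest widths listed. For the C91A library the caller's header offered 2, 50 and 595 bp as fragment lengths and used the one equal to the tag length. Within the C91A list, 975 peaks (40.7%) were under 100 bp and made up 12.6% of the covered length, with a median fold enrichment of 3.30. The 63 peaks of at least 1 kb (2.63%) made up 16.7% of the length, with a median fold enrichment of 4.68. Spearman's rho between width and fold enrichment was 0.49 over the 2396 C91A peaks and -0.06 over the 203 knockout peaks. Width instead went with local background in the knockout list (rho 0.65) and not in the C91A list (0.03). The peaks of a list share 1 library, so these are descriptions. Width is the stretch above the caller's cutoff, so on an even background a higher summit tends to give a wider peak.

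Wide C91A peaks were found at genes of several kinds. A peak of 3028 bp lay at Nptx1, a secreted pentraxin gene of neurons (fold enrichment 3.72). There were 2411 bp at Nkx2-1, the thyroid and lung homeobox factor (5.06), 2401 bp inside Skor1, a neuronal corepressor gene (2.55), and 2311 bp at Sp9 (5.17). Foxl2, the ovarian forkhead factor, had 2076 bp (4.87), and Pax7, a muscle and neural paired-box factor, 2060 bp (5.45). Nkx6-1, a homeobox factor of pancreas and spinal cord, had 1827 bp (2.77), and Nr5a1, the steroidogenic factor, 1794 bp within its body (5.25). Of peaks of at least 1 kb, 42 (66.7%, 54.4 to 77.1) lay at a gene end, against 500 (51.3%, 48.1 to 54.4) of those under 100 bp. Skor1 and Nkx6-1 combined large width with low fold enrichment, on backgrounds of 2.26 and 1.74 times that of the genome.

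Cbx2 and Cbx8, neighbours on chromosome 11 that encode chromodomain subunits of PRC1, lay among strong C91A peaks. In 44 kb around them 31 peaks covered 10.9 kb. The strongest was a peak of 2759 bp beyond Cbx8 (chr11:119054846-119057604), with a fold enrichment of 6.29 on 80 tags. It lay outside any protein-coding gene and more than 1 kb from a gene end, and it made 25.3% of the covered length of the region. Cbx8 had 7 peaks within 1 kb of its ends, the highest at 5.75. Cbx2 had 2 narrow peaks, the higher with a fold enrichment of 3.83 and a width of 98 bp. No knockout peak lay in the region.

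**Figure D3:**
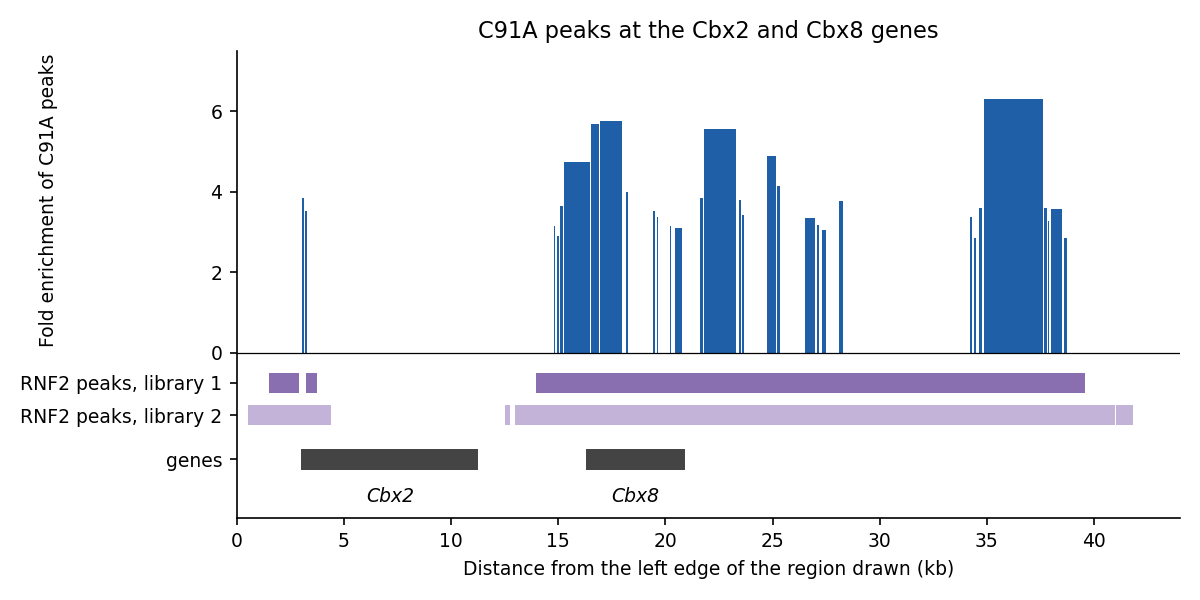
C91A peaks over 44 kb around Cbx2 and Cbx8 (blue bars, width to scale, height the authors' fold enrichment), with wild-type RNF2 peaks of 2 libraries (purple) and gene bodies (grey) below, and distance from the left edge in kb on the horizontal axis. The tallest bar, 6.29, stands outside both genes.

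C91A peaks came in groups. When neighbouring peaks no more than 5 kb apart were joined, the 2396 peaks fell into 926 regions. Of the peaks, 1911 (79.8%, 78.1 to 81.3) shared a region with another, in 441 clusters, and 485 stood alone. The knockout list had 131 of 203 peaks in clusters (64.5%, 57.7 to 70.8). The lists differ in length, and among the best 203 C91A peaks 31.5% were in clusters, so the order turned there. In the knockout list 5 clusters held 101 peaks (49.8%), whereas the 5 largest C91A clusters held 130 (5.43%). The median C91A cluster spanned 1037 bp, and peaks covered a median of 56.7% of a cluster. The gap to the next peak was at most 200 bp for 971 of 2375 C91A neighbours (40.9%) and for 22 of 178 knockout neighbours (12.4%). The smallest gaps were 51 and 58 bp. Gaps and cluster counts are not on a common footing either, because tags were extended to 50 bp in the C91A library and 147 bp in the other. A stretch of signal may be listed as more peaks with the shorter extension, and the part of this in the clustering was not tested. Counts of peaks per cluster or per gene are thus counts of listed intervals. No peak began or ended at the same base as another peak in either list, which describes how the peaks were listed and not the binding.

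The largest C91A clusters lay at homeobox genes. The Hoxa cluster, whose genes pattern the body axis, held 40 peaks in 31.9 kb from Hoxa3 to Hoxa10 (chromosome 6, 52202966 to 52234885), with fold enrichments of 2.63 to 4.68. The Hoxd genes Hoxd9 to Hoxd12 held 24 peaks in 24.3 kb on chromosome 2, with values of 2.58 to 5.60. Otx1, a forebrain homeobox factor, held 23 in 11.2 kb, and Nkx2-3, a factor of gut and spleen, 22 in 16.8 kb. The fifth, at Cbx8, held 21 in 13.5 kb. Peaks covered 28.7% of the Hoxa run, 51.3% at Otx1 and 49.8% at Cbx8. In the knockout list the largest were 35 peaks on JH584304.1, the 24 on chromosome 9 and the 22 at Sfi1.

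Counted by peak, lone C91A peaks were at gene ends more often than clustered ones. Of the 485 that stood alone, 357 (73.6%, 69.5 to 77.3) were at a gene end, against 867 of 1911 in clusters (45.4%, 43.1 to 47.6). Counted by region, 680 of 926 regions (73.4%) held a peak at a gene end. That is close to the share of lone peaks, so the contrast does not hold by region. Of the 1171 peaks on chromosomes that were not at an end, 620 (52.9%) belonged to a cluster that also held a gene-end peak. In the knockout list 1 of 72 lone peaks was at an end. Lone knockout peaks had a median fold enrichment of 4.95 on 3.41 times the genome background, and clustered ones 3.39 on 7.77 times.

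A total of 814 protein-coding genes had a C91A peak within 1 kb of an end, 3.74% of 21779. Strand was known for 624 of them, and 548 (87.8%, 85.0 to 90.2) held peaks only within 1 kb of the edge of the gene body at which it begins, called the start here. The end alone was occupied at 30 (4.81%), and at 10 of these 30 the peak also lay within 1 kb of the start of another gene. A further 46 (7.37%) were occupied at each side. Over all genes 311 (38.2%) had 2 or more peaks, 29 had at least 5 and 3 had at least 10, namely Nkx2-3 and Otx1 with 12 each and Lbx1, a homeobox factor of muscle precursors, with 10. These 3 counts were looked up after the values were seen.

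The strongest gene-end peaks combined developmental factors with genes of general cell functions. Foxb2, a forkhead gene, led with a fold enrichment of 5.89 on 76 tags. At 5.75 on 73 tags each were Slu7, a splicing factor, Auh, an enzyme of leucine breakdown, Cbx8, and Nkx2-4, a homeobox factor. Zic1 and Zic4, zinc-finger factors of the cerebellum, shared a peak of 5.68. Ccdc28a, Hoxd9 and the forkhead gene Foxd2 stood at 5.60 each, Uncx, a homeobox factor of the somites, at 5.56, Lsm7 with its neighbour Sppl2b at 5.52 and Pax7 at 5.45. The median over all 2396 peaks was 3.47, on a median of 46 summit tags. Tied fold enrichments recur because each is a whole number of summit tags over the same background.

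A few genes held separate peaks at their ends. At 51 genes each end window held a peak that the other did not, and 46 of these genes were no longer than 10 kb. Ranked by the lower of the sides' fold enrichments, Foxb2, Cbx8, Foxd1, Uncx, Nkx2-1, Pitx1, Foxd4 and Hoxc11 came first. Cbx8, 4611 bp long, had 5.75 at one end and 5.55 at the other, and Uncx had 4.91 and 5.56. Nkx2-1 had 5.06 and 4.58, Pitx1, a hindlimb and pituitary factor, 4.58 and 4.76, and Hoxc11 4.76 and 4.45. Foxb2, Foxd1 and Foxd4 are so short that their strongest peak, of 5.89, 5.21 and 4.53, reached both windows. Genes with a C91A peak had a median length of 16.1 kb, against 17.2 kb over all protein-coding genes.

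Some peaks lay at the ends of neighbouring genes. Of the 1224 gene-end peaks, 159 (13.0%) lay at ends of at least 2 genes, in 124 sets of genes. In 77 sets a pair of genes was divergent, read from opposite strands away from each other. At 15 of these 1 peak covered both starts, and at 39 a peak covered at least 1 of them. In 2 sets the ends of the genes faced each other. Another 10 sets lay on the same strand, and for 35 the strand was unknown or there were 3 genes. Divergent pairs included Zic1 and Zic4, Lsm7 and Sppl2b, Ncapd3 with Vps26b (5.29), Mpnd with Stap2 (4.60) and Mrrf, a mitochondrial ribosome recycling factor, with Rbm18 (4.52). The pairs after the first 2 were chosen here with their values seen. Among C91A genes 346 (42.5%, 39.2 to 45.9) had an end window that meets that of another gene, against 7010 (32.2%) of all protein-coding genes. A peak where end windows meet counts for each of the genes, which raises the first share by construction. The comparison therefore cannot show a preference for such genes.

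Summits lay downstream of starts more often than upstream. Starts were known for 17492 genes, none of them on chromosome 18, so that 2351 C91A peaks and 138 knockout peaks entered this count. The median distance to the nearest start was 2034 bp for C91A peaks and 94881 bp for knockout peaks. Within 250 bp of a start lay 479 C91A summits (20.4%) and within 1 kb 935 (39.8%, 37.8 to 41.8). Of 138 knockout summits 0 lay within 1 kb, and 9 (6.52%) lay within 5 kb. Among the C91A summits within 1 kb, 592 lay downstream and 341 upstream (63.3% downstream, 60.2 to 66.3), with a median position of 91 bp past the start.

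The position differed between the developmental lists and other genes. For each of the 624 genes of known strand, the summit of the strongest peak was placed relative to the nearest start of that gene. In the 55 Hox, forkhead, Nkx, Pax, Zic, Gata and LIM genes the median position was 631 bp downstream. Only 5 (9.09%, 3.95 to 19.6) lay within 250 bp of the start and 42 (76.4%, 63.7 to 85.6) lay farther downstream. In the 569 other genes the median was 52 bp, with 321 (56.4%, 52.3 to 60.4) within 250 bp and 145 (25.5%, 22.1 to 29.2) farther downstream. The strongest peaks were also wider at the listed genes, with a median of 368 bp against 134 bp, and 41 of 55 (74.5%) had 2 or more peaks against 180 of 569 (31.6%). The listed genes were chosen with earlier results known, and genes of a Hox cluster share regions, so these shares are descriptions.

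**Figure D4:**
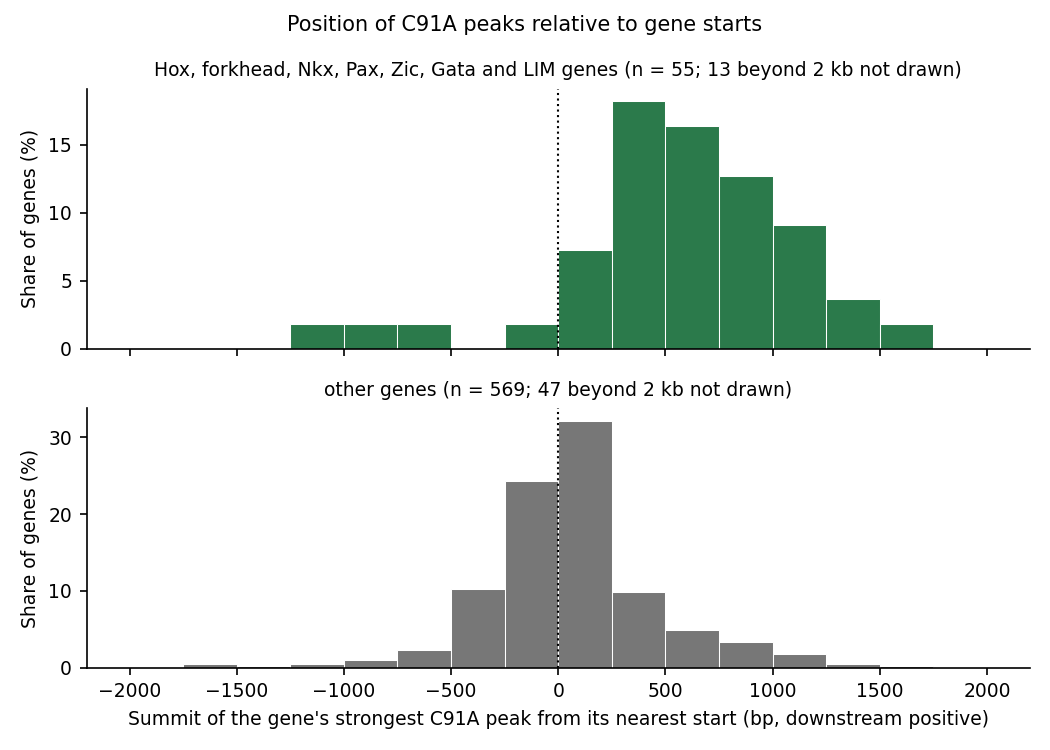
Position of the summit of each gene's strongest C91A peak from its nearest start (horizontal, bp, downstream positive), as a share of genes in 250 bp bins (vertical, percent), for 55 genes of developmental lists (top) and 569 other genes (bottom). The median is 631 bp downstream in the upper panel and 52 bp in the lower.

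Genes with wild-type RNF2 in both libraries and genes with it in neither differed in a similar way. Where the strongest peak lay under RNF2 peaks of both wild-type libraries (234 genes), 46 summits (19.7%, 15.1 to 25.2) were within 250 bp of the start. Where neither library held RNF2 (189 genes), 138 (73.0%, 66.3 to 78.8) were, with a median position of 7 bp. Of the first kind 140 genes (59.8%) had 2 or more peaks, and of the second 40 (21.2%). The median fold enrichments were close, 3.78 and 3.53. Genes with RNF2 in a single library are in neither set, so the split is not one of RNF2 present against absent. Over all 624 genes of known strand, 326 summits (52.2%) were within 250 bp of the start. RNF2 was not mapped in C91A cells, so the same cells were not compared.

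Promoters under C91A peaks were CpG-rich. Of the 21263 promoter windows of protein-coding genes, 463 met a C91A peak. Those held a median of 24 CpG and 62.7% G and C, against 13 and 56.3% over all. At least 10 CpG were present in 449 (97.0%) against 56.8% of all. The share of windows with a C91A peak was 0.0663% with 0 to 4 CpG, 0.316% with 5 to 9, 1.99% with 10 to 14, 4.19% with 15 to 19, 3.85% with 20 to 29 and 4.33% with 30 or more. It thus rose up to about 15 CpG and stayed level beyond, within the intervals.

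Motif letters differed between C91A promoters with RNF2 in both wild-type libraries and those with RNF2 in neither. The ETS letters CCGGAAG, searched on both strands, were in 152 of the 463 C91A windows (32.8%, 28.7 to 37.2), in 11.6% of all protein-coding windows and in 18.4% of those with at least 10 CpG. In the 151 C91A windows that met no RNF2 peak of either wild-type library they were in 68 (45.0%, 37.3 to 53.0). In the 139 that met RNF2 in both they were in 12 (8.63%, 5.01 to 14.5). Windows that met RNF2 in a single wild-type library are left out of both groups but count among the 463. The split is therefore not one of RNF2 present against absent. Windows without a C91A peak were not split by RNF2, so whether the contrast is particular to C91A windows was not tested. The YY1 letters GATGGC went the same way, with 40 (26.5%, 20.1 to 34.0) and 14 (10.1%, 6.09 to 16.2), against 14.7% of windows with at least 10 CpG. YY1 is a zinc-finger factor that has been found with BAP1 and HCFC1. The forkhead letters TGTTTAC were in 30 of the 463 (6.48%, 4.58 to 9.10), against 3.01% of all windows and 2.13% of those with at least 10 CpG. Without RNF2 there were 13 (8.61%, 5.10 to 14.2) and with it 5 (3.60%, 1.55 to 8.14), intervals that overlap. The CRE letters were in 7.78%, the NRF1 letters in 6.48% and the E-box in 9.72% of C91A windows, against 5.88%, 7.12% and 11.1% of those with at least 10 CpG. The E-box letters were in 7 (4.64%) of the windows without RNF2 and in 17 (12.2%) of those with it. The last base of an ETS match can be the first of a YY1 match, and windows of a gene with several starts can share bases.

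**Figure D5:**
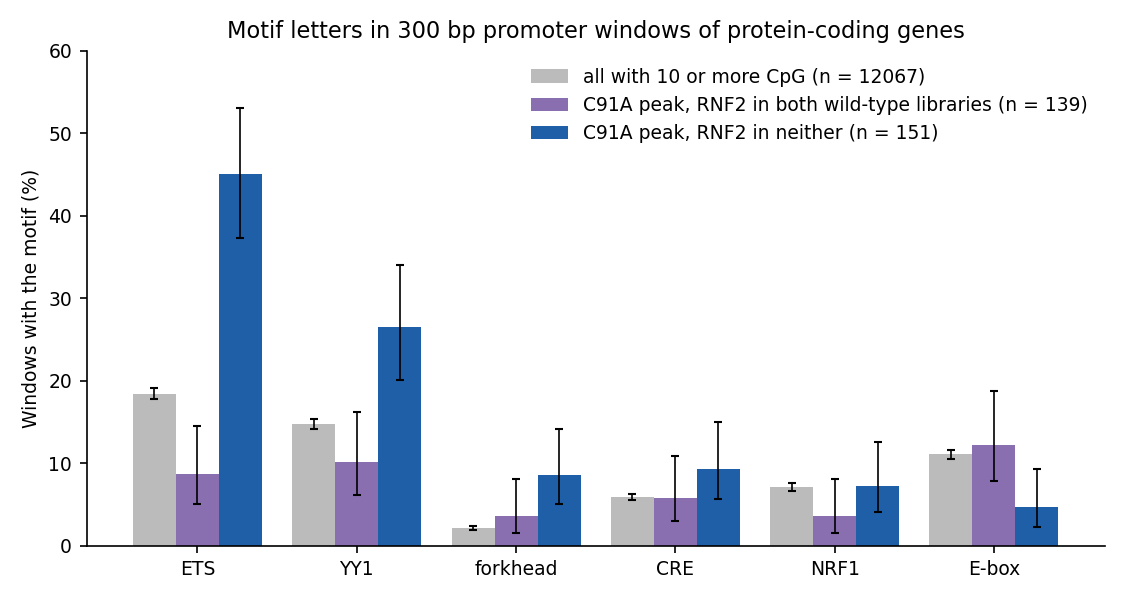
Share of 300 bp promoter windows with the letters of each of 6 motifs (vertical, percent, Wilson 95% intervals as error bars), for all protein-coding windows with 10 or more CpG (grey), C91A windows with RNF2 in both wild-type libraries (purple) and C91A windows with RNF2 in neither (blue). The ETS letters stand at 18.4%, 8.63% and 45.0%.

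Among the gene lists, the developmental families had the highest shares of genes with a C91A peak within 1 kb of an end, set against 3.74% of all genes. Of 39 Hox genes, 33 (84.6%) had a peak, with Hoxd9 (5.60), Hoxd10 (5.35), Hoxb2 (5.22) and Hoxd11 (5.06) highest. The median of the strongest Hox fold enrichments was 4.12, against 3.60 over all 814 genes. Of 44 forkhead genes, which encode winged-helix factors, 18 (40.9%) had a peak, led by Foxb2, Foxd2, Foxd1 (5.21) and Foxf2 (5.14). Foxk1 and Foxk2, whose products bind BAP1, had none. Of 14 Nkx homeobox genes 10 (71.4%) had one, with a median of 3.5 peaks per gene, of 12 LIM homeobox genes 8 (66.7%), and of 20 Pax, Zic and Gata genes 11 (55.0%). With peaks anywhere in the gene body counted too, the share was 4.52% over all genes. It was 36 of 39 (92.3%) for Hox, 19 of 44 (43.2%) for forkhead, 10 of 14 for Nkx, 11 of 12 (91.7%) for LIM and 14 of 20 (70.0%) for Pax, Zic and Gata genes. Gata4, an endoderm and heart factor, was one of those added, with a cluster of 13 C91A peaks of fold enrichments up to 4.68 in 11.2 kb.

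Polycomb genes were occupied in part. Of 24 PRC1 genes, 6 had a C91A peak (interval 12.0% to 44.9%). Cbx8 and Cbx2 were among them, as were Bmi1, a PCGF subunit (3.76, 341 bp), and Pcgf5 (3.14) and Mga (3.10), each with 1 narrow peak, of 63 and 56 bp, within 1 kb of a gene edge. The summit at Pcgf5 lay 539 bp past its nearest annotated start, and that at Mga lay at -24140 bp from the nearest start in the promoter table. Rnf2 and Ring1, the ligase genes, had none. Of 12 PRC2 genes, which encode the histone H3 lysine methyltransferase, 1 had a peak (8.33%, 1.49 to 35.4), an interval that includes the share of all genes. It was Ezh1, with a peak of 50 bp, the smallest width listed, and a fold enrichment of 3.10. Jarid2, of the same list, was touched by a knockout peak only.

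Several lists held no C91A peak within 1 kb of a gene end, and none in the gene body. There were 0 of 12 for BAP1 and its partner genes (interval up to 24.2%), 0 of 20 for pluripotency factors (up to 16.1%), 0 of 18 for housekeeping genes (up to 17.6%) and 0 of 12 for fibroblast genes (up to 24.2%). The upper limits of these small lists all lie above the shares of all genes. Of 37 Nduf genes of respiratory complex I, 4 (10.8%, 4.29 to 24.7) had a peak at an end, against 3.74% of all genes. They were Ndufb5, Ndufc1, Ndufa12 and Ndufs7. Ndufb5 shares its peak of 4.06 with Mrpl47, a mitochondrial ribosomal protein gene.

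The X chromosome held few C91A peaks. It had 4 (0.167%, 0.0649 to 0.428), among them peaks at Wdr45, an autophagy gene (4.37), in Klhl15 (3.68) and at Cited1, a transcriptional coactivator gene (2.91). The X holds 963 protein-coding genes, 4.42% of all, and 2 of them (0.208%) had a peak at an end. Wild-type RNF2 lists had 2.65% and 1.42% of their peaks on the X, and the knockout list had 3 (1.48%). The number of X chromosomes in the cells is not stated in the labels.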

How the data were processed

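The alignments were made by the submitters with GSNAP on build GRCm38 (mm10), per their processing notes. MACS2 2.1.0.20150420 had been run on each ChIP library with its own input, keeping q-values up to 0.05, per the file headers. Each deposited row holds a peak's summit pileup signal, the −log10 p-value, the −log10 q-value and the fold enrichment, a ratio to local background, all as the authors computed them. Libraries were scaled to the smaller of ChIP and input, so summit tags were recovered by dividing by the scale. The local background is the pileup plus 1, divided by the fold enrichment, less 1. Genes and promoter windows came from RefSeq tables of GRCm38.p6. The gene table held 21779 protein-coding genes after 108 entries placed in the first 3 Mb of a chromosome were left out, and strand was taken from the promoter table. Steps were run in Python 3.11.15 with pandas 2.3.3, numpy 2.4.6 and scipy 1.17.1 and tested on simulated peaks. With 1 library a group, no test was made.

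Members and lists were chosen with earlier results of these data known. Named genes are those at the 15 strongest gene-end peaks, the 10 widest peaks, the 5 largest clusters, the top 8 with separate peaks at the ends, all genes touched by a control peak, and up to 4 members per list by fold enrichment. Promoters are the 6 strongest with a summit inside the window and the one under a control peak. A list of genes at sites of recurrent pileup had 3 members in the protein-coding table, of which the C91A list held Lars2 and the control touched Lars2 and Sfi1. The mitochondrial gene list had 0 members there. Some genes that these rules name are not reported here.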

Additional observations from a re-analysis of the deposited data

How the results depend on the processing

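Of 44 alternatives to 11 results, 20 moved a value by less than its interval, or a count by less than 1.5 times, and 24 moved it by more. C91A peaks at gene ends (51.1%) became 35.7% with a window of 500 bp, 72.2% with 2.5 kb and 47.8% by summit, and the knockout share (0.493%) became 0% and 2.96% with those windows. C91A peaks inside genes (36.9%) became 49.1% and 19.3%. With −log10 q of at least 5, 430 of 2396 C91A peaks remained, with a median width of 483 bp, 54.4% at gene ends, 50.0% in clusters and 216 genes. At 10 or more, 24 peaks remained (1223 bp, 83.3%, 20.8%, 20 genes), and 117 knockout peaks, 45.3% in clusters. The best 203 C91A peaks, as many as the knockout list, had a median width of 675 bp, 56.7% at gene ends and 31.5% in clusters. The clustered share with a gap of 2 kb was 77.5%, and 193 genes had a fold enrichment of at least 4. The overlap of the lists was 0 under the other rules run, except that 1 C91A peak (0.0417%) lay within 10 kb of a knockout peak. No paired analysis was possible because each group had 1 ChIP library. Depth limits the control to sites of high enrichment.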
